A study of Mus musculus with 9 samples.

Results

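The cytosolic ribosomal protein genes were followed across all 9 libraries of a mouse brain RNA-seq series on intracerebral hemorrhage (ICH). Members were the protein-coding genes of the deposited table whose names begin with Rpl or Rps followed by a digit, or by p and a digit, together with Rpsa. Names holding -ps (pseudogenes) and the Rps6k kinases were left out. The rule found 87 of the 55401 genes. They comprised 43 core genes of the large subunit, 31 core genes of the small subunit, 3 genes of the P stalk and 10 named copies or other names.

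ICH was made in the study's wildtype mice, adult male C57BL animals, by injecting the animal's own whole blood into the right basal ganglia. Sham mice had the needle inserted without blood and were sampled on day 3. The 3 ICH libraries, also of day 3, came from mice given the vehicle of Laminaria, and the 3 Laminaria libraries from ICH mice treated with Laminaria. The sample labels give days 4, 5 and 6 for Laminaria 1, 2 and 3, so treatment and day cannot be told apart in that group. These days climb by 1 from each library to the next and could be a slip in filling in the labels, and the study's methods do not settle it. Whether every library is a different mouse is stated neither in the labels nor in the methods, and the p-values therefore cover only variation among these libraries, which may be technical.

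A ribosome joins a small subunit, which reads the mRNA, to a large subunit, which forms the peptide bonds, and the P stalk of the large subunit recruits the translation factors. Each subunit needs its proteins in matched amounts, and ribosomal protein genes are among the most evenly expressed genes of a cell. Their mRNAs begin with a run of pyrimidines, the 5′ terminal oligopyrimidine or TOP motif, through which mTOR and the RNA-binding protein LARP1 set how well they are translated. Growing and dividing cells hold more of these mRNAs than resting cells.

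The start regions of members that the results below turn on are shown first. Of the 87 members, 67 had a promoter window in RefSeq (build GRCm38.p6, 250 bases before to 50 bases after the annotated start). Each sequence below covers 20 bases before and 20 bases from the start, 5′ to 3′ on the gene's strand. Capitals mark a C followed by at least 5 further C or T that begins within 10 bases of the start, the letters searched as the TOP-like run. The first 7 are the members higher after ICH whose window holds such a run, and the last 2, Rplp0 and Rps2, are the P stalk gene and the small subunit gene with the largest change.
Rps27l (chr9:66946066-66946105, plus strand): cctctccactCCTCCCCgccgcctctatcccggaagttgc
Rpl35 (chr2:39005112-39005151, minus strand): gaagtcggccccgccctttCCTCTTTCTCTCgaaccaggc
Rpl18 (chr7:45718051-45718090, plus strand): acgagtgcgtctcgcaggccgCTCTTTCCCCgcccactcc
Rps26 (chr10:128626487-128626526, minus strand): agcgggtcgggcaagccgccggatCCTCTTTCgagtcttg
Rps21 (chr2:180257359-180257398, plus strand): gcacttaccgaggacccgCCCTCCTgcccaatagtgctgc
Rpl12 (chr2:32961692-32961731, plus strand): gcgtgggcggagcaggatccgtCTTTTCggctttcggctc
Rps15a (chr7:118116128-118116167, minus strand): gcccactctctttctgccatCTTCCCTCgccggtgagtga
Rplp0 (chr5:115559447-115559486, plus strand): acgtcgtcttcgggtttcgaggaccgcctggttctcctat
Rps2 (chr17:24720043-24720082, plus strand): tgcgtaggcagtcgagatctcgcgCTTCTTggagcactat

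The run was found in 36 of the 67 members (53.7%), against 21.9% of the 27025 genes with a window and 23.6% of the other tested genes. Among the factors that build ribosomes, which are not ribosomal proteins, it was found in 11.1% of 45 genes. Other lists of translation genes ran from 11.1% (9 elongation factor genes) to 41.2% (17 regulators of ribosomal protein genes and nutrient signalling). Ribosomal proteins under other names stood apart from these, with the run in 2 of 3 genes. Among members with a window it was found in 7 of the 14 called higher after ICH and in 27 of the 49 tested but not called, and the difference was not tested. The letters CCGGAAG or their reverse complement CTTCCGG, the core bound by ETS factors and a search added after the data were seen, stood anywhere in the 300 bases for 26 of the 67 members (38.8%) and for 18.2% of the other tested genes. They were about as frequent in several other translation lists, such as 37.8% of 45 ribosome biogenesis genes, 44.4% of 9 elongation factor genes and 33.3% of 30 initiation factor genes. Other lists had them less often, at 7.14% of 14 other TOP mRNAs and nascent chain factors and 16.7% of 12 signal recognition particle and translocon genes. Of 13 ribosome quality control genes 0 had them. Of all genes with a window, 9.93% held these letters. A match is a description of the letters only.

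Levels are given as CPM, counts brought to a common library total and scaled by TMM, a factor that corrects for the make-up of each library. Total counts were 51307799 to 74649716 per library. The quasi-likelihood test of edgeR was run on every gene averaging 0.5 FPKM or more in the compared libraries, and a gene was called changed at a Benjamini-Hochberg adjusted p under 0.05 over all genes tested. Of the members, 83 were tested. The other 4, Rpl3l, Rpl39l, Rpl10l and the retrogene Rps23rg1, stayed at or below 1.06 CPM in every library, and Rpl10l was at 0 counts in all 9. The members lay on 19 chromosomes, 4 of them on X. As a check of the labelled tissue, the 8 marker genes of medium spiny neurons, the main neurons of the striatum, were present in every library and summed to between 2168 and 4881 CPM.

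Per length, the median tested member had 65.9 FPKM in the sham group. Rplp1, which with Rplp2 forms the acidic arms of the P stalk, stood highest on the FPKM scale at 661, followed by Rps15 at 494.5 and Rpl19 at 277.4. Of the 83 tested members Rpl22l1, the copy of Rpl22, was lowest at 9.24 FPKM, next to Rps19bp1 at 11.7 and Rps27l at 11.9. Rps19bp1 encodes a protein that binds Rps19 and is not itself part of the ribosome. FPKM divides by 1 length per gene, so these levels order the genes only roughly.

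After ICH, ribosomal protein mRNAs as a class were higher than after sham operation. Their summed share of all counts was 1.32%, 1.24% and 1.43% for sham 1 to 3. For ICH 1 to 3 it was 1.54%, 1.89% and 1.852%. The lowest ICH library thus lay above the highest sham library, and ICH 1 was nearer to the sham group than to the other ICH libraries. The mean share was 1.33% ± 0.0935 in sham and 1.76% ± 0.193 after ICH (SD, n = 3 each). Brain tissue is a mixture, so more cells rich in ribosomal protein mRNA and more of this mRNA per cell cannot be told apart.

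Of the 83 tested members, 82 had a positive log2 fold change, and the median was 0.36, or 1.28-fold. The median of all 16414 genes tested was 0.012. In all, 18 members were called higher and none lower, while 7.42% of all genes were called higher and 519 of the 16414 were called lower. At an unadjusted p under 0.05, 60 members were higher, against 17.2% of all genes. The 3 ICH libraries lay wholly above the 3 sham libraries for 52 members, against 19.5% of all genes. No member was lower at that unadjusted threshold either, against 2020 of the 16414 genes. The members stood close together, since the quartiles of their log2 fold changes were 0.29 and 0.45 and the median standard error of a single member was 0.12. Among all genes the quartiles were −0.21 and 0.31.

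The 18 called members were 9 of the large subunit (Rpl4, Rpl7, Rpl12, Rpl13, Rpl18, Rpl30, Rpl32, Rpl35 and Rpl36a), 7 of the small subunit (among them Rps3a1, Rps7, Rps15a, Rps16, Rps21 and Rps26), Rplp0 of the P stalk and the copy Rps27l. Of the adjusted p values from edgeR, that of Rps27l was 0.0294 and that of Rpl4, the highest of the 18, was 0.0487. The number called rested on single libraries and on the scaling. It was 0 without sham 1, sham 2, ICH 2 or ICH 3, it was 1 without sham 3 and 49 without ICH 1, and it was 7 when TMM was computed over the whole table. The direction did not rest on them, since 79 to 82 of the 83 members stayed positive whichever library was left out, with a median between 0.31 and 0.43.

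**Figure D1:**
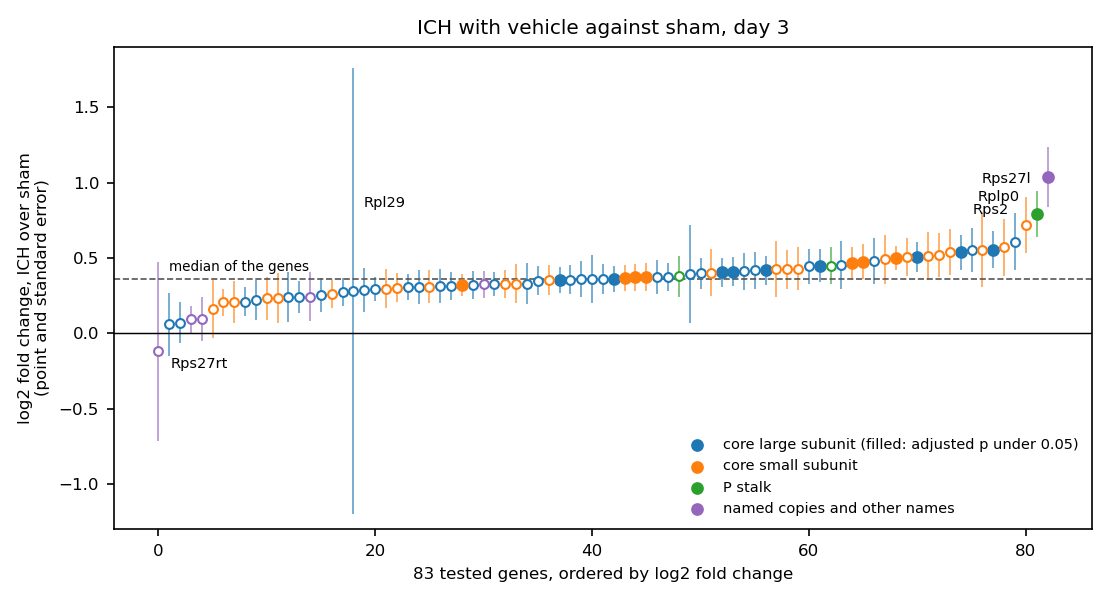
Log2 fold change of ICH over sham (y axis) for each of the 83 tested ribosomal protein genes (x axis, in order), with its standard error. Colours mark the classes and filled points the 18 genes with an adjusted p under 0.05. Points lie close to the median of 0.36, with Rps27l and Rplp0 above the others, Rps27rt below 0 and Rpl29 with the widest error.

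Markers of several other cell types, though not of all, also differed between sham and ICH. All 8 pan-myeloid genes, among them Cd68, Ptprc and Tyrobp, were called higher, and their summed level was 299.8 to 489.8 CPM in the sham group and 820.4 to 1674 CPM after ICH, with none of the 8 at 0 in any library. Of the 7 monocyte and neutrophil genes, 4 of 6 tested were called higher, and their sum was 2.31 to 2.81 CPM in sham and 17.9 to 155.1 CPM after ICH, with 4 genes at 0 in at least 1 library. Of the 5 neuronal genes, Rbfox3 was called lower and the sum was 3399 to 3713 CPM in sham and 2247 to 3084 CPM after ICH. Astrocyte genes summed to 1161 to 1825 CPM and 3032 to 5838 CPM, with 3 of 5 called higher. The 8 medium spiny neuron genes summed to 3094 to 4881 CPM and 2271 to 3374 CPM, which overlap. Of these 8 edgeR and limma called none and DESeq2 called 4 lower, and at an unadjusted p under 0.05 edgeR had 6 lower and 1, Pde10a, higher. The 4 choroid plexus genes, led by Ttr, summed to 97.6 to 1269 CPM in sham and 1809 to 4821 CPM after ICH, and the 5 genes of red blood cells to 12.5 to 16.3 CPM and 27.1 to 143.2 CPM. Choroid plexus genes were highest in ICH 1, the ICH library with the lowest ribosomal protein share. Red blood cell genes had 33.1, 143.2 and 27.1 CPM in ICH 1 to 3. Endothelial genes summed to 143.6 to 171.1 CPM and 191.6 to 235.0 CPM, with 2 of 4 called higher. Homeostatic (resting) microglia genes summed to 204.7 to 312.7 CPM and 408.3 to 711.7 CPM, with 1 of 5 called higher. The 5 oligodendrocyte genes summed to 5831 to 8096 CPM in sham and 6066 to 6753 CPM after ICH, which overlap, and none was called. The part of these cells in the ribosomal protein difference was not tested.

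Of the large subunit genes 9 were called higher and all 43 were positive, with a median log2 fold change of 0.36 and a range from 0.058 to 0.61. Rpl32, a core protein of the large subunit, had 151.1, 146.2 and 173.6 CPM in sham 1 to 3, 195.4, 256.0 and 240.2 CPM in ICH 1 to 3, and 183.4, 179.5 and 239.0 CPM in Laminaria 1 to 3. All ICH and all Laminaria libraries lay above all sham libraries. This came to 0.56 on the log2 scale after ICH, with a standard error of 0.12 (edgeR, adjusted p = 0.0385).

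Rpl18 had 69.8, 62.6 and 75.3 CPM in sham, 86.5, 108.3 and 106.4 CPM after ICH, and 74.7, 79.1 and 103.0 CPM with Laminaria. Here too every ICH library was above every sham library, while Laminaria 1 fell inside the sham range. After ICH it was higher by 0.54 on the log2 scale, with a standard error of 0.12 (edgeR, adjusted p = 0.0372). Rpl10a, which forms the L1 stalk through which used tRNA leaves, had 136.4, 119.4 and 137.7 CPM in sham, 151.1, 214.8 and 211.5 CPM after ICH, and 149.1, 146.5 and 208.2 CPM with Laminaria. The sham libraries were the lowest 3 of the 9. Its log2 fold change of 0.55 after ICH had a standard error of 0.14 and just missed the threshold (adjusted p = 0.0564, edgeR). Rpl19, abundant on the FPKM scale, had 348.9, 306.9 and 333.7 CPM in sham, 369.7, 424.2 and 433.5 CPM after ICH, and 348.1, 363.1 and 401.8 CPM with Laminaria. Its ICH libraries lay above its sham libraries, without a call (log2 fold change 0.31, adjusted p = 0.0787, edgeR).

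Rpl21 had the largest fold change of the large subunit, from 57.1 ± 14.6 CPM in sham to 86.9 ± 5.14 CPM after ICH (SD, n = 3 each). Its sham libraries 1 to 3 had 41.45, 59.3 and 70.45 CPM. Its log2 fold change of 0.61 (standard error 0.19) was not called (adjusted p = 0.0871, edgeR). Its reads cannot be followed alone, since the pseudogene rows named after it held 71.9% of the counts of Rpl21 and those rows together. When their counts were added to Rpl21, its log2 fold change was 0.28 (adjusted p = 0.143).

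Of the 31 small subunit genes 7 were called higher and all were positive as well, with a median log2 fold change of 0.37 and a range from 0.16 to 0.72. Rps2, a protein near the mRNA entry channel, led them with 153.6, 133.8 and 170.1 CPM in sham 1 to 3 and 184.3, 269.9 and 300.6 CPM in ICH 1 to 3. Laminaria 1 to 3 had 170.2, 190.7 and 227.1 CPM. The ICH libraries were all above the sham libraries but spread widely, so the log2 fold change of 0.72 (standard error 0.19) was not called (adjusted p = 0.0554, edgeR).

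Rps4x, carried on the X chromosome, had 250, 263.6 and 280.6 CPM in sham, 293.9, 442.1 and 416.6 CPM after ICH, and 295.2, 300.1 and 368.9 CPM with Laminaria. The sham libraries were the lowest 3 of the 9, and ICH 1 was level with Laminaria 1 and 2. Its log2 fold change after ICH was 0.54 (standard error 0.15, adjusted p = 0.0693, edgeR). Rps20 had 83.3, 60.4 and 70.3 CPM in sham, 80.9, 105.7 and 130.9 CPM after ICH, and 96.3, 76.3 and 127.8 CPM with Laminaria. Here ICH 1 fell below sham 1, so the groups overlapped, and the log2 fold change of 0.57 (standard error 0.19) was not called (adjusted p = 0.105, edgeR). Rps15, also abundant on the FPKM scale, had 365.8, 350.8 and 370.8 CPM in sham, 380.5, 411.5 and 459.1 CPM after ICH, and 360.7, 363.7 and 391.7 CPM with Laminaria. The ICH libraries lay above the sham libraries by a small margin. Its log2 fold change was 0.20 (adjusted p = 0.185, edgeR).

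The subunits moved in step. Large subunit genes held 1.44 to 1.49 times the counts of small subunit genes in every library, and the order of the 9 ratios did not separate the groups. The 3 P stalk genes were all positive. Rplp0, which anchors the stalk to the ribosome, had 232.0, 214.5 and 268.0 CPM in sham 1 to 3, 325.2, 454.3 and 457.8 CPM in ICH 1 to 3, and 309.1, 291.6 and 444.2 CPM in Laminaria 1 to 3. The 6 libraries of ICH mice, treated or not, all lay above the sham libraries, and Laminaria 3 came near ICH 2 and 3. The log2 fold change after ICH was 0.79 (standard error 0.15, adjusted p = 0.0303, edgeR).

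Rplp0 (chromosome 5 from 115559467 to 115563727, GRCm38, plus strand) thus rose from 238.2 ± 27.3 to 412.4 ± 75.5 CPM (SD, n = 3 each). Of its partners in the stalk, Rplp2 had 129.7, 134.4 and 144.9 CPM in sham, 152.0, 197.4 and 208.2 CPM after ICH, and 150, 151.2 and 162.0 CPM with Laminaria. Rplp1 had 343.3, 370.5 and 436.1 CPM, then 422.0, 534.2 and 535.9 CPM, then 405.2, 402.4 and 476.5 CPM. Sham and ICH overlapped for Rplp1 and not for Rplp2. Their log2 fold changes of 0.45 (adjusted p = 0.0655, edgeR) and 0.38 (adjusted p = 0.117, edgeR) were not called, and the difference between Rplp0 and its partners was not tested.

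**Figure D2:**
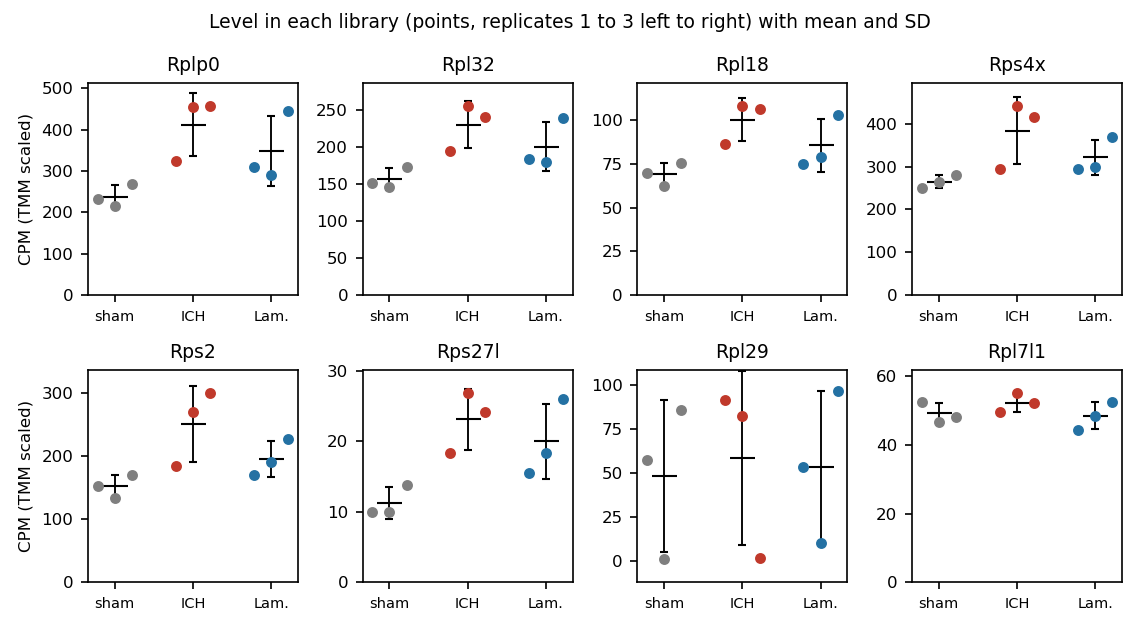
CPM (y axis, from 0 except for Rpl29) of 8 ribosomal protein genes in sham, ICH and Laminaria (Lam.) libraries. Points are libraries 1 to 3 from left to right, and black marks are the mean and SD. Rplp0 and Rps27l show the clearest gap between sham and ICH, Rpl7l1 lies level, and Rpl29 is near 0 in sham 2 and ICH 3.

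Among the named copies, Rps27l changed most of all members. It encodes a close relative of Rps27 and is known as a target of p53. Trp53, the gene of p53, was called higher (log2 fold change 0.49, adjusted p = 0.042, edgeR). Its mRNA does not measure the activity of p53, and a link with Rps27l was not tested. Mdm2, another known target of p53, was not called (log2 fold change 0.078, adjusted p = 0.599, edgeR). Rps27l (chromosome 9 from 66946086 to 66949516, GRCm38) had 9.96, 10.04 and 13.9 CPM in sham 1 to 3, 18.4, 26.9 and 24.1 CPM in ICH 1 to 3, and 15.6, 18.4 and 26 CPM in Laminaria 1 to 3. Every library of an ICH mouse was above every sham library. Its log2 fold change after ICH was 1.04 (standard error 0.20, adjusted p = 0.0294, edgeR). Rps27l and Rplp0 were the only called members that also passed in each of the 12 other fits that kept all libraries.

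None of the other tested copies and other names was called after ICH by edgeR, and of these Rpl36al alone passed at an unadjusted p under 0.05 and was called by limma and DESeq2. Rpl36al, the copy of Rpl36a, had 66.0, 57.4 and 67.0 CPM in sham, 77.7, 80.4 and 79.9 CPM after ICH, and 69.4, 65.5 and 78.6 CPM with Laminaria, with no overlap of sham and ICH (log2 fold change 0.33, adjusted p = 0.0682, edgeR). Rpl22l1 had 18.9, 22.4 and 23.0 CPM in sham, 23.5, 30.7 and 21.7 CPM after ICH, and 20.1, 27.4 and 28.2 CPM with Laminaria, and the groups overlapped (log2 fold change 0.24, adjusted p = 0.365). Rpl7l1, a relative of Rpl7 found in precursors of the large subunit in human cells, had 52.6, 46.9 and 48.1 CPM in sham, 49.5, 55.2 and 52.2 CPM after ICH, and 44.5, 48.6 and 52.4 CPM with Laminaria. Its groups overlapped too (log2 fold change 0.091, adjusted p = 0.548). Rps19bp1 had 14.3, 13.6 and 16.4 CPM in sham, 13.8, 15.4 and 17.98 CPM after ICH, and 12.6, 12.6 and 11.6 CPM with Laminaria. Sham and ICH overlapped, and the Laminaria libraries were the lowest 3 (log2 fold change after ICH 0.094, adjusted p = 0.713, edgeR).

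Rps27rt, a retrotransposed copy on chromosome 9 of Rps27 on chromosome 3, was the only tested member with a negative log2 fold change after ICH (−0.12, standard error 0.60, adjusted p = 0.916, edgeR), and that sign turned in some other fits. It had 13.3, 78.2 and 64.1 CPM in sham 1 to 3, 30.3, 55.9 and 57.0 CPM in ICH 1 to 3, and 7.61, 30.1 and 14.7 CPM in Laminaria 1 to 3. Rps27 itself had 114.5, 56.6 and 69.2 CPM, then 111.5, 123.7 and 117.0 CPM, then 126.1, 106.8 and 136.6 CPM. Where the copy was low in the sham group, Rps27 was high, and the reverse.

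Of the stretches of 50 bases in the coding transcripts of Rps27rt, 91.1% also occur in Rps27 (GENCODE vM21). The sum of both genes was far more even. It was 127.8, 134.8 and 133.4 CPM in sham, 141.8, 179.6 and 173.9 CPM after ICH and 133.7, 136.9 and 151.3 CPM with Laminaria. The sum was 1.25 times as high after ICH as in sham, with no overlap, and followed the median of the other members over the 9 libraries with r = 0.938. For Rps27 alone this r was 0.607 and for Rps27rt 0.144. This pair was examined after its values were seen, and how the authors' counting dealt with shared reads is not given in the sources used here.

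**Figure D3:**
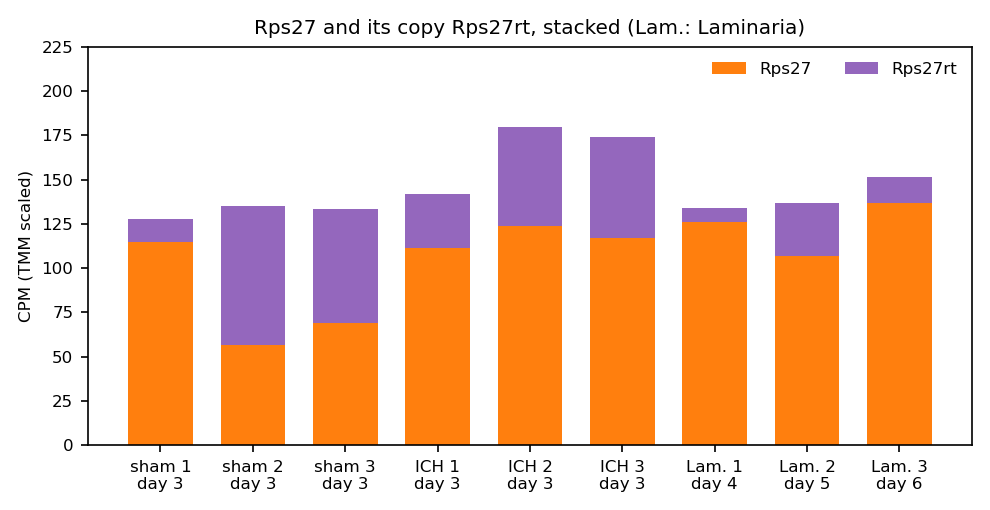
CPM (y axis) of Rps27 and of its copy Rps27rt, stacked, in each of the 9 libraries (x axis, Lam. for Laminaria). The parts swap between sham 1 and the other sham libraries, while the stacked height stays between 127.8 and 134.8 CPM in sham and reaches 141.8 to 179.6 CPM after ICH.

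Shared sequence was common in the class. The median member shared 33.5% of its stretches of 50 bases with another annotated gene, 23 members shared over 50%, and 4 shared none. A further 326 rows of the table were named as pseudogenes of ribosomal proteins, and those matched by name to a member held over 10% of the joint counts for 21 members. These rows held 0.14% ± 0.00396 of all counts in sham and 0.193% ± 0.0199 after ICH (SD, n = 3 each), with no overlap. When their counts were added to the member of the same name, 21 members were called higher, among them the 18 above. The share of all genes called in that fit is not reported here, so this count cannot be judged against it.

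Rpl7a and Rpl17 showed the smallest positive changes of the core genes, at 0.058 and 0.071. The pseudogene rows named after them held 54.1% and 70.8% of the joint counts, and Rpl7a-ps11 alone had 64.5 to 111.2 CPM. Joined with those rows, Rpl7a reached 0.26 (edgeR, adjusted p = 0.159) and Rpl17 reached 0.32 (edgeR, adjusted p = 0.0853) on the log2 scale. Joined Rpl17 was 261.0 ± 4.67 CPM in sham and 325.5 ± 39.96 CPM after ICH (SD, n = 3 each).

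Over the 9 libraries most members had the same libraries high and low. Each member was set against the median of the other members, on log2 CPM less the gene's own mean. The median r over 83 members was 0.935, 66 members were above 0.8 and 7 below 0.5, where the points share the libraries and the scaling. Rpsa was most alike at 0.994 and Rpl29 least at 0.096.

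Rpl29, a late-joining protein of the large subunit, had 57.7, 1.32 and 85.9 CPM in sham 1 to 3, 91.6, 82.3 and 1.93 CPM in ICH 1 to 3, and 53.3, 10.5 and 96.9 CPM in Laminaria 1 to 3. One library of each group was thus far below the others, and no comparison can be drawn from this gene (log2 fold change 0.28, standard error 1.48). Adding its 3 named pseudogene rows left these drops in place, at 1.67, 2.31 and 10.9 CPM.

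Libraries within a group differed in a graded way. The median deviation of the members from their own mean was −0.19, −0.26 and −0.11 (log2) in sham 1 to 3, −0.019, 0.29 and 0.28 in ICH 1 to 3, and −0.11, −0.055 and 0.18 in Laminaria 1 to 3. ICH 1 was the lowest ICH library for 78 of 83 members, sham 3 was the highest sham library for 63, and Laminaria 3 the highest Laminaria library for 72. The pan-myeloid genes also had sham 3 and Laminaria 3 highest and ICH 1 lowest in their groups, whereas their lowest sham and Laminaria libraries were others, sham 1 and Laminaria 2. Their medians were −1.73, −1.57 and −0.86 in sham, 0.22, 1.24 and 1.16 after ICH and 0.31, 0.068 and 1.04 with Laminaria. This was not particular to them. Astrocyte, homeostatic microglia, and monocyte and neutrophil genes had the same libraries highest and lowest in this way. Astrocyte medians were −0.47, −0.67 and −0.36 in sham, 0.011, 0.50 and 0.59 after ICH and 0.026, −0.079 and 0.50 with Laminaria. Neuronal genes ran the reverse way, with sham 3 and Laminaria 3 lowest and ICH 1 highest. Laminaria 3 is labelled day 6 and the other libraries of the group earlier days, so labelled day and library cannot be told apart.

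**Figure D4:**
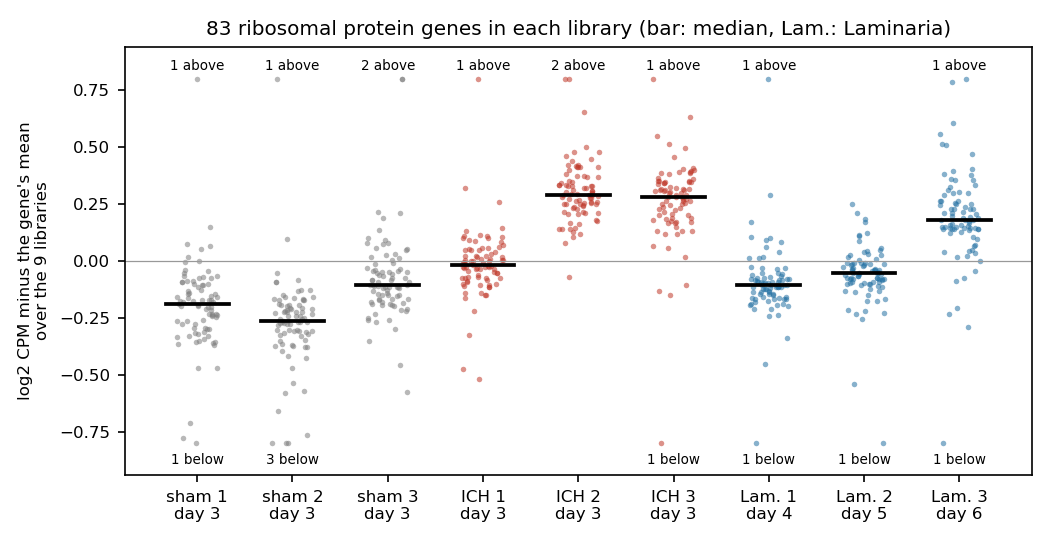
Log2 CPM of each of the 83 tested genes less its mean over the 9 libraries (y axis), by library (x axis, Lam. for Laminaria), with the median as a bar. Numbers at the edges count points drawn at the limit of the axis. Medians run from −0.26 in sham 2 to 0.29 in ICH 2, and ICH 1 lies near Laminaria 2.

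The members were also set beside other genes of like length and level. Length here was the value implied by the deposited counts and FPKM. It was 7114 bases for Rps15a and need not be the length of the mRNA. Other tested genes of 1500 to 2500 bases had a median log2 fold change after ICH of 0.11, and the 31 members of that length 0.36. For 2500 to 5000 bases the medians were 0.046 for other genes and 0.36 for 26 members. Above 5000 bases they were −0.068 for other genes and 0.36 for 4 members. Up to 600 bases they were 0.10 for other genes and 0.37 for 3 members. The gap was smaller between 600 and 1500 bases. For 600 to 1000 bases the medians were 0.17 for other genes and 0.32 for 7 members. For 1000 to 1500 bases they were 0.15 for other genes and 0.35 for 12 members. Other genes at 100 to 300 CPM had a median of −0.18, whereas the 48 members at that level had 0.40. These differences between members and other genes of like length or level were not tested.

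Other genes of the translation machinery were compared by lists. Over all 16414 genes tested, edgeR called 1218 (7.42%) higher and 519 lower. At an unadjusted p under 0.05 it had 2826 (17.2%) higher and 2020 lower. The matching counts over all genes by limma and DESeq2 are not reported here. The list of ribosomal proteins under other names had 4 tested genes, among them Fau, Rack1 and Rsl24d1. None was called in either direction by edgeR or limma, DESeq2 called 1 higher, and edgeR had 2 higher at an unadjusted p under 0.05. The median log2 fold change was 0.45 and all 4 were positive. Fau, which encodes a small subunit protein fused to a ubiquitin-like part, had 135.9 to 157.3 CPM in sham and 174.4 to 219.6 CPM after ICH (log2 fold change 0.44, adjusted p = 0.0546, edgeR). Rack1, a scaffold on the small subunit, had 0.48 (adjusted p = 0.183, edgeR) and Rsl24d1 had 0.45 (adjusted p = 0.195, edgeR). Rsl24d1 is a factor of large subunit assembly and not itself a ribosomal protein, although it is counted in the median of this list.

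Of the 17 other TOP mRNAs and nascent chain factors, 2 were called higher and 16 were positive, with a median of 0.26. Tpt1, a growth-related TOP mRNA, had 426.7 to 498.3 CPM in sham and 582.8 to 760.8 CPM after ICH (log2 fold change 0.58, adjusted p = 0.0373, edgeR). Vim, whose product is the filament of reactive astrocytes, was the other (log2 fold change 3.12, adjusted p = 0.0226, edgeR). The list of 12 elongation factors, which also holds release factors and a scaffold of tRNA synthetases, had a median of 0.12. None of its genes was called by edgeR or limma, while DESeq2 called 1 higher and 1 lower. At an unadjusted p under 0.05 edgeR had 3 higher and 1 lower. Eef1a1, the main carrier of tRNA to the ribosome, was at 0.42 (adjusted p = 0.0676, edgeR), whereas Eef1a2, its form in neurons and muscle, was at −0.39 (adjusted p = 0.0747, edgeR).

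Medians of the initiation and assembly factors lay near 0. Of 39 initiation factors and regulators, 2 were called higher, Eif4ebp1, the mTOR-controlled repressor of eIF4E (log2 fold change 2.31, adjusted p = 0.0226, edgeR), and the poly(A)-binding protein gene Pabpc1 (log2 fold change 0.58, adjusted p = 0.0385, edgeR), with a median of 0.065 for the list. Of the 52 ribosome biogenesis genes none was called by edgeR or limma, and their median was 0.012. At an unadjusted p under 0.05 edgeR had 1 higher and 4 lower, and DESeq2 called 4 lower. Ddx21, a helicase of the nucleolus, was farthest up at 0.44 (adjusted p = 0.0949, edgeR) and Nob1, which trims the small subunit RNA, farthest down at −0.40 (adjusted p = 0.172, edgeR). The 19 genes of RNA polymerase I and its factors, which make ribosomal RNA, had a median of 0.011 and no call by edgeR, limma or DESeq2, and by edgeR none passed at an unadjusted p under 0.05. The 13 ribosome quality control genes had a median of −0.082 and no call by these tools, with 2 lower by edgeR at an unadjusted p under 0.05. The 15 genes of the signal recognition particle and translocon had a median of 0.11 and no call by edgeR or limma, 1 higher by DESeq2 and 4 higher by edgeR at an unadjusted p under 0.05.

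Among 23 regulators of ribosomal protein genes and nutrient signalling, 3 were called higher and 3 lower, beside 1218 higher and 519 lower of all 16414 genes. The higher genes were Eif4ebp1, Trp53 and the kinase gene Rps6ka1 (log2 fold change 1.07, adjusted p = 0.0221, edgeR). The lower genes included Larp4, which binds poly(A) tails (−1.37, adjusted p = 0.0216, edgeR), and Mtor (−0.32, adjusted p = 0.0416). Mtor had 116.1 to 126.1 CPM in sham and 95.5 to 99.3 CPM after ICH, without overlap. Larp1 had 69.5 to 83.7 CPM in sham and 61.2 to 137.8 CPM after ICH, where ICH 1 was below the sham range and the others above it (log2 fold change 0.53, adjusted p = 0.265, edgeR).

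**Figure D5:**
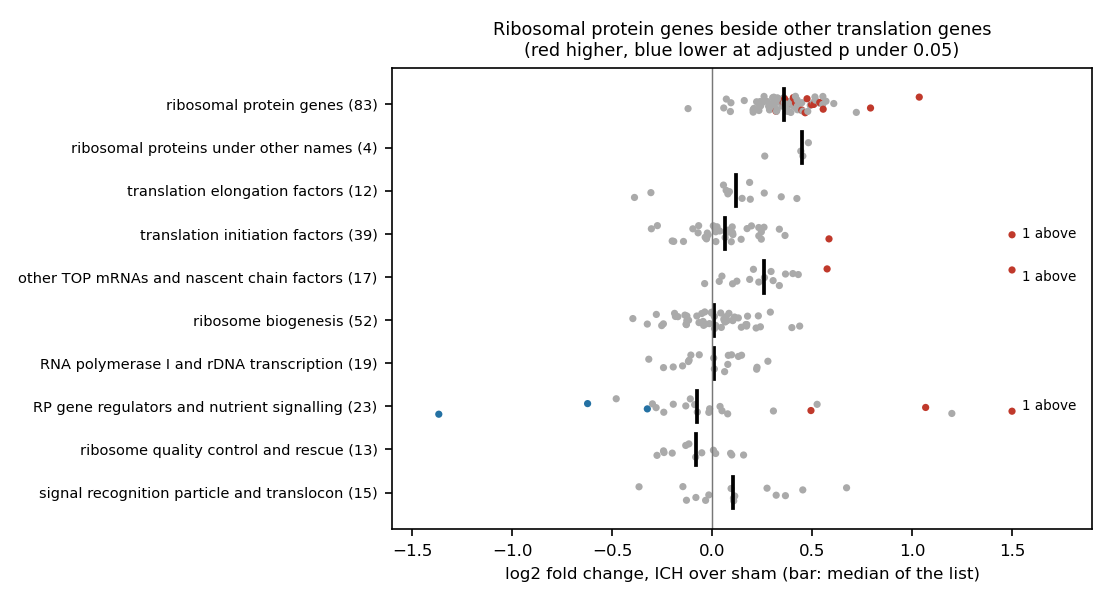
Log2 fold change of ICH over sham (x axis) of single genes in the ribosomal protein class and 9 other lists of translation genes (y axis, number of tested genes in brackets), with the median of each list as a bar. Red and blue points passed the test, and points beyond the axis are counted at its edge. Ribosomal protein genes centre on 0.36 and ribosome biogenesis genes on 0.012.

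Laminaria-treated mice were compared with vehicle-treated ICH mice, a comparison that uses the same ICH libraries as above. None of the 83 members was called by edgeR in either direction, while 0.018% of all 16654 genes were called. At an unadjusted p under 0.05 edgeR had 8 members lower and none higher, against 1.65% of all genes lower. limma on log2(FPKM + 1) called none and had 6 at an unadjusted p under 0.05, and DESeq2 called Rpl21 lower and had 10. The shares of all genes passing by limma and DESeq2 are not reported here, so these counts cannot be judged against them. The groups did not overlap for 8 members, all lower, against 4.79% of all genes. The log2 fold change was negative for 76 members, with a median of −0.16 (0.892-fold), beside −0.0016 for all genes.

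The members took 1.43%, 1.48% and 1.84% of all counts in Laminaria 1, 2 and 3, so the first and second lay below all ICH libraries and the third inside their range. Rpl21 had the smallest unadjusted p, with 81.1, 91.0 and 88.5 CPM in the ICH libraries and 62.4, 67.1 and 64.5 CPM with Laminaria, within the sham range of 41.5 to 70.5 CPM. With its named pseudogene rows added, Rpl21 had 250.9, 271.3 and 296.2 CPM in the ICH libraries and 219.4, 256.8 and 257.5 CPM with Laminaria, and the groups overlapped. Rpl11, which with Rpl5 and 5S RNA can bind Mdm2, had 228.5 to 281.9 CPM after ICH and 156.0 to 221.9 CPM with Laminaria, a log2 difference of −0.49. The largest difference was that of Rps27rt, at −1.43, while its partner Rps27 was at 0.075. Without Laminaria 3 the median of the members was −0.27, and without Laminaria 1 it was −0.10.

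Laminaria-treated mice were also compared with the same sham libraries, and no member was called by edgeR in either direction, while 0.0183% of all 16405 genes were called. At an unadjusted p under 0.05, 14 members were higher and none lower, against 11.2% of all genes higher. limma on log2(FPKM + 1) called none and had 22 at an unadjusted p under 0.05, and DESeq2 called Rps27l higher and had 15. Here too the shares of all genes by limma and DESeq2 are not reported. The Laminaria libraries lay wholly above the sham libraries for 31 members, against 14.9% of all genes, and wholly below them for Rps19bp1. The median log2 fold change was 0.18 (1.13-fold), with 77 of 83 positive, beside 0.0068 for all genes. Without Laminaria 3 the median was 0.089.

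The mean of the Laminaria libraries stood between the means of sham and ICH for 71 of 83 members. The share over all genes is not reported here. Most members had the same libraries high and low, so this count does not hold 83 separate observations. Over sham, Rps27l had the highest log2 fold change of the members, at 0.82 (unadjusted p = 0.0104, edgeR), and Rplp0 was at 0.54 (unadjusted p = 0.0209, edgeR), neither passing after adjustment. Rps25 went another way, with 80.9 to 130.1 CPM in sham, 115.0 to 137.3 CPM after ICH and 136.9 to 181.7 CPM with Laminaria, so that its Laminaria mean was the highest of the 3 groups. Rpl41, the shortest ribosomal protein, had 207.6 and 204.6 CPM in Laminaria 1 and 2 and 410.6 CPM in Laminaria 3. Since each Laminaria library is labelled with its own day, which may be a labelling slip, neither pattern can be assigned to treatment or to time.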

How the data were processed

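The members and gene lists were chosen with earlier results of these data known. The authors deposited 1 table with whole-number counts and FPKM values per gene and library. The submitters' processing notes name cutadapt 1.9, FastQC 0.10.1, HISAT2 2.0.4, StringTie 1.3.4 and a rat genome build, although the identifiers and coordinates are mouse (GRCm38). For counting, annotation release and strandedness no detail was found, and near-identical copies may share reads. In the deposited counts low values pile up at multiples of 4 (10444 values of 4 and 2011 of 5), for a reason not tested. FPKM values deposited by the authors served for the filter and for limma.

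Each comparison was fitted alone in edgeR 4.0.16 (R 4.3.3) with TMM over tested genes, checked on simulated data. Standard errors were taken from the F statistic. limma 3.58.1 on log2(FPKM + 1) or log2(FPKM + 0.1) and DESeq2 1.42.0 were alternatives, with other scalings, filters, a replicate block and left-out libraries. Values per library were given for the 4 largest changes of each class, the named copies, the 3 highest and 3 lowest members by sham FPKM, and any member called against the direction of most (there was none). Values of other members (Rpl7a, Rpl11, Rpl17, Rpl29, Rpl41, Rps25) were chosen after they were seen. Of other lists the 4 largest changes could be named, and the ribosomal proteins under other names. Larp1, Trp53, Mdm2 and Mtor were added after their values were seen. Sequences are from RefSeq and shared stretches from GENCODE vM21. Protein sequences were not used here, and some genes are counted but not reported here by name.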

Additional observations from a re-analysis of the deposited data

How the results depend on the processing

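Leaving out 1 library at a time, the number of members called after ICH ranged from 0 to 49. With all libraries it was 42 by DESeq2, 7 with DESeq2 size factors in edgeR, 7 with TMM computed without the members, 6 with edgeR's own filter, 3 without a filter and 4 with all 9 libraries in 1 fit. TMM over all genes before the filter, added after the data were seen, gave 7, and over all genes its calls were 1125 higher and 733 lower (1125 and 755 with DESeq2 size factors) against 1218 and 519. limma called 22 or 23 and leaving out mitochondrial, rRNA and pseudogenes gave 19. The shares of all genes called by limma and DESeq2 are not reported here, so their counts of members cannot be judged against them. In these 12 other fits the median of the members stayed between 0.33 and 0.40. DESeq2 called 1 member in each Laminaria comparison, where all other fits called 0, left-out libraries included.

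With the replicate number as a block 3 members were called after ICH. The numbers do not pair the libraries: same-numbered sham and ICH libraries had correlations of 0.123, −0.0447 and 0.101 in their deviations, and number 2 correlated best with number 3. The log2 fold change of Rps27rt turned to 0.17 with the block, 0.21 and 0.22 by limma, and between −0.58 and 0.28 without single libraries. Without single libraries the range was −0.31 to 0.9991 for Rpl29, −0.052 to 0.17 for Rpl17, −0.094 to 0.23 for Rpl7a and −0.027 to 0.18 for Rps19bp1, none of them called in any fit. No called member turned in direction. The limits are 3 libraries a group, unknown handling of shared reads, and treatment days that differ within the Laminaria group.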

Other observations

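Outside the class, 15914 genes tested in all 3 comparisons were ordered by how closely they followed the median of the ribosomal protein genes over the 9 libraries. Their median r was 0.0041, and 2016 genes were above 0.8. The closest were Mtarc2 (r = 0.998), Rhoa, a small GTPase of the cytoskeleton (0.991), Jpt2 (0.991), Arap1 (0.99) and Slc1a4, a carrier of neutral amino acids (0.989). Among the closest 30 were also the TOP mRNAs Tpt1 (0.988) and Eef1a1 (0.98), the beta 1 integrin gene Itgb1 (0.985), the oxidative stress factor gene Nfe2l2 (0.981), the replication gene Cdc45 (0.982) and the pseudogene row Rps7-ps3 (0.984). These genes were chosen by this likeness, the points share libraries and scaling, and the values are a description.

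The near loss of Rpl29 from sham 2 and ICH 3 was shared by a few unrelated genes, found by looking for its pattern. Cptp had 6.45 CPM in sham 2 and 6.74 CPM in ICH 3, and 23.0 to 31.1 CPM in the other 7 libraries. Zfand2a had 19.0 and 13.5 CPM there and 59.7 to 71.5 CPM elsewhere. Hpcal4 showed the reverse, with 434.0 CPM in sham 2 and 575.8 CPM in ICH 3 against 25.1 to 44.0 CPM elsewhere. The initiation factor gene Eif4a2 stepped in other libraries, with 462.3 CPM in sham 1, 403.9 CPM in ICH 1 and 432.4 CPM in Laminaria 2 against 183.1 to 231.2 CPM in the rest. None of these genes was called between ICH and sham.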
